A study of Homo sapiens with 21 samples.

Results

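The chromatin sites described here are those that carry the name of SOX2, SOX4, SOX5, SOX6, SOX8, SOX9, SOX10 or SOX11 in the deposited site annotation, which gives each consensus site the gene with the nearest transcription start site (TSS). There were 155 such sites among 367900 consensus sites: 53 for SOX5, 41 for SOX11, 18 for SOX2, 16 for SOX6, 11 for SOX9, 9 for SOX8, 7 for SOX4 and 0 for SOX10. Accessibility was measured by ATAC-seq, which counts the fragments that the Tn5 transposase cuts from open chromatin, in SK-N-BE(2), an established human neuroblastoma line. All groups were transduced with lentivirus and were profiled 72 h afterwards. The 7 groups of 3 libraries were Control (a non-silencing shRNA), shARID1A.2 and shARID1A.4 (ARID1A silencing), shARID1B.2 and shARID1B.3 (ARID1B silencing), and shARID1A/B.2.3 and shARID1A/B.4.2, which silenced both genes and together are called the combination. ARID1A and ARID1B are alternative subunits that hold together the BAF complex, a chromatin remodeller, so the comparisons ask what happens to these sites when either subunit or both are depleted. By the numbers in the names, shARID1A/B.2.3 joins shARID1A.2 with shARID1B.3, and shARID1A/B.4.2 joins shARID1A.4 with shARID1B.2. The labels do not spell this out. Accessibility counts do not show how far either gene was silenced. All libraries came from 1 cell line, and a site need not regulate the gene whose name it carries.

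SOX proteins are transcription factors that bind and bend DNA through a shared HMG box. SOX2 (group B1) maintains neural progenitors, SOX4 and SOX11 (group C) act in differentiating neurons and sympathetic neuroblasts, SOX5 and SOX6 (group D) lack an activation domain of their own and work with other SOX factors, and SOX8, SOX9 and SOX10 (group E) act in the neural crest, the embryonic source of the sympathetic cells from which neuroblastoma arises, with SOX10 also marking glia. Enhancers of such developmental regulators often lie far from the promoter.

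The central 200 bases of the sites with the largest fall in SOX2, SOX5 and SOX9 are shown because these sites carry losses described below. Only sites past the threshold, averaging 1 CPM or more and without overlap with Control were considered. Passing and the lack of overlap at these sites were thus set by this choice. A SOX5 site outside these limits fell further and is given below. They are written from the forward strand of GRCh38 and named by the distance of the site from the TSS, with a plus sign for sites downstream. Capitals mark a homeodomain pair motif (an inverted pair of homeodomain core sites with any 3 bases between them) in the SOX2 window.
SOX2 +74.4 kb: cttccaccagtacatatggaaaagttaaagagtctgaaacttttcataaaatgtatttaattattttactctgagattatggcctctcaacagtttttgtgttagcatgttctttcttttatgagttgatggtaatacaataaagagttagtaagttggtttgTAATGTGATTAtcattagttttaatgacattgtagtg
SOX5 +379.6 kb: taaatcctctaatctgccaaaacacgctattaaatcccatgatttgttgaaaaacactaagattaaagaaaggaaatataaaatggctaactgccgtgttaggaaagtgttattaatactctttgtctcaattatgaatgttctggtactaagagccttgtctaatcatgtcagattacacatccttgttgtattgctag
SOX9 +6.3 kb: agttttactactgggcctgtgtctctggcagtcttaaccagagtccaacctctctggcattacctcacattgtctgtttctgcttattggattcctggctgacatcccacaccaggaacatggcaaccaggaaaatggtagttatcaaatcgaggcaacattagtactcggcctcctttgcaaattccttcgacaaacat
The SOX2 window is chr3:181786183-181786382, the SOX5 window chr12:23564625-23564824 and the SOX9 window chr17:72127243-72127442. Both strands of the central 200 bases of every consensus site were searched for the first SOX motif AACAAT, the second SOX motif AACAAAG, the AP-1 motif TGANTCA, the GATA motif AGATAA, the neurogenic E-box CAGATG, the symmetric E-box CAGCTG, and the homeodomain pair motif. None of these letters besides the capitals occurred in the 3 windows. The window of SOX6 +250.1 kb, picked by the same limits but not printed, held a GATA motif match (TTATCT). The homeodomain pair motif was held by 0.724% of all windows and by 1 of the 155 SOX windows. Either SOX motif was held by 18.1% of the SOX windows and 14.8% of all windows, and the GATA motif by 7.10% and 11.7%. A match is a stretch of letters, not a site shown to be bound.

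Library totals ranged from 16140029 to 44472230 reads in sites, and the values below are CPM, read counts scaled to the TMM-adjusted library total. At TSS sites, 7 of 9 adrenergic neuroblastoma genes had a site within 1 kb, at 2.43 to 43.9 CPM in Control, as did 3 of 6 mesenchymal genes (0.793 to 36.8 CPM) and 2 of 3 epithelial genes (2.75 and 6.62 CPM), whereas 0 of 4 blood and 0 of 2 liver genes had one. Promoter sites took 20.0% to 20.6% of the counted reads in Control libraries, 23.4% to 24.0% in shARID1A/B.2.3 and 24.8% to 25.1% in shARID1A/B.4.2, with the 4 single-shRNA groups between 20.9% and 24.1%. In such bulk samples, fewer open cells and less opening per cell cannot be told apart.

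SOX10, the neural crest and glial factor of group E, carried no site by name. A site of 2450 bases over its last exon (chr22:37971544-37973993) carried the name of the microRNA gene MIR6820 and therefore lay outside the 155; it was looked up after the other values were seen. It held 3.22 CPM ± 1.15 (SD, n = 3) in Control, 2.31 ± 0.298 in shARID1A/B.2.3 and 2.24 ± 0.425 in shARID1A/B.4.2. Its log2 change with the combination was -0.50 (SE 0.16) and missed the threshold (edgeR FDR = 0.0147), while it was lower than with single silencing by the same test (log2 difference -0.53, FDR = 0.00025). Another 16 sites carried the name of SOX2-OT, the long non-coding RNA gene in which SOX2 lies, and 2 that of the antisense gene SOX9-AS1, and these were likewise outside the 155.

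Accessibility summed over all sites of a gene and divided by their total length was highest for SOX4 in Control (6.39 CPM per kb ± 0.415), followed by SOX2 (4.73 ± 0.218), SOX9 (3.97 ± 0.177), SOX11 (3.97 ± 0.160), SOX6 (2.37 ± 0.104), SOX5 (1.59 ± 0.117) and SOX8 (1.57 ± 0.269), with 3 libraries each. SOX9 and SOX11, and SOX5 and SOX8, did not differ beyond their spread. A single site held 46.0% to 62.3% of this signal for SOX11, SOX4, SOX2, SOX9 and SOX6, and 38.0% for SOX8. In SOX5, the strongest of 53 sites held 8.82%, so that its signal was spread over many intronic and intergenic sites. The strongest SOX6 site lay upstream of the TSS (SOX6 -129.8 kb, chr11:16604436-16608018) and held 20.99 CPM in Control against 21.4 and 23.4 in the 2 combinations, a log2 difference of 0.09 (SE 0.08, FDR = 0.473, edgeR).

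Summed SOX2 accessibility was 59.4 to 65.0 CPM in the Control libraries and lower in every silenced library. In the order of the means, it ranged from 45.8 to 48.5 CPM in shARID1A/B.2.3, 50.4 to 54.4 in shARID1B.3, 51.4 to 53.9 in shARID1A/B.4.2, 50.4 to 57.4 in shARID1A.2, 54.3 to 57.7 in shARID1B.2 and 57.5 to 59.1 in shARID1A.4. Neighbouring groups in this order overlapped, except that the lowest and Control stood apart. SOX11 moved the other way, from 223 to 242 CPM in Control to 285 to 298 CPM in shARID1A/B.4.2 and 258 to 281 CPM in shARID1A/B.2.3, both above all Control libraries. SOX11 was also above Control in shARID1A.4 (257 to 282 CPM) and shARID1B.3 (261 to 282 CPM), whereas shARID1A.2 and shARID1B.2 overlapped with it.

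For SOX9, the combinations parted, with 58.2 to 61.2 CPM in shARID1A/B.4.2, above all Control libraries (46.1 to 50.4 CPM), and 44.2 to 47.2 CPM in shARID1A/B.2.3, which overlapped with them. The groups shARID1A.4 (53.4 to 55.8 CPM) and shARID1B.2 (52.1 to 56.8 CPM) were also above Control for SOX9. By the numbers in the names, these are the hairpins joined in shARID1A/B.4.2. SOX4 held 60.7 to 68.2 CPM in Control and 69.6 to 70.2 CPM in shARID1A/B.4.2, shARID1A.4 was likewise above Control at 68.4 to 76.4 CPM, and shARID1A/B.2.3 overlapped with Control. SOX5 held 51.2 to 58.8 CPM in Control and was below it in shARID1B.3 (42.2 to 46.9 CPM), shARID1A.4 (49.4 to 50.5 CPM) and shARID1A/B.4.2 (49.3 to 50.6 CPM). SOX6 left the Control range (32.0 to 34.6 CPM) in shARID1A.2, at 29.97 to 31.2 CPM, and in shARID1B.3, at 35.2 to 36.3 CPM. SOX8 overlapped with Control (12.4 to 17.2 CPM) in every group. These summed levels are descriptions and were not tested. Without TMM, SOX6 overlapped with Control (31.7 to 35.5 CPM) in shARID1A.2 (30.5 to 31.8) and shARID1B.3 (34.1 to 36.3). SOX4 was then above Control (62.5 to 67.3 CPM) in shARID1A/B.2.3 (67.5 to 75.9), shARID1A.2 and shARID1B.3 as well. Over only the SOX5 sites within 100 kb of the TSS, shARID1B.3, shARID1A.4 and shARID1A/B.4.2 overlapped with Control (17.6 to 21.3 CPM).

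**Figure D1:**
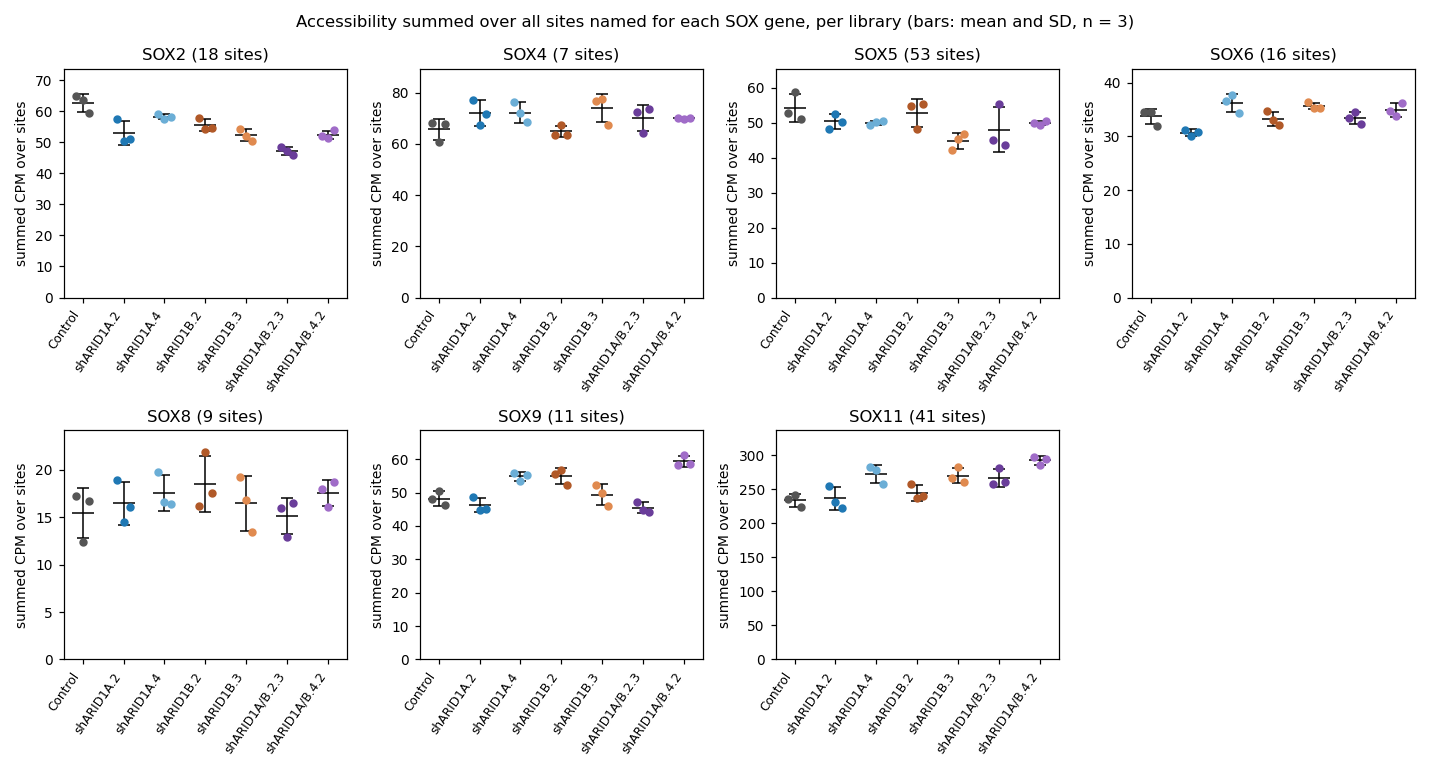
Summed CPM over all sites of each SOX gene in the 21 libraries (points, y axis from 0), by group on the x axis, with the mean and SD of 3 libraries as bars. All silenced libraries sit below the 3 Control libraries for SOX2, and shARID1A/B.4.2 sits above Control for SOX4, SOX9 and SOX11.

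The filter on low counts left 151 of the 155 sites for testing and removed 3 SOX5 sites and 1 SOX11 site. With the combination, 18 of the 151 sites (11.9%) were less accessible than in Control at an FDR under 0.01 (edgeR quasi-likelihood test over all 357029 tested sites), against 10.3% of all tested sites. More accessible were 4 sites (2.65%), against 3.43% of all. The SOX sites as a whole were thus close to the background in both directions, with a median log2 change of -0.01 beside 0.03 over all sites. Of the tested sites, 13 (8.61%) had all 6 combination libraries below all 3 Control libraries, against 10.8% of all sites, and 7 (4.64%) had all above, against 4.85%. Of the sites that passed the test, 12 of the 18 lower and 4 of the 4 higher ones had no overlap between these libraries. Passing itself favours sites without overlap, and the matching share among all sites that passed is not given here.

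The 18 lower sites lay 6.3 to 382.6 kb from the TSS, 10 of them in introns, 7 between genes and 1 at a transcript end. Within 1 kb of the TSS, 4 sites were tested, of which 0 were lower and 2 higher (0 and 2 also by DESeq2; at an unadjusted p under 0.05, 0 and 3 by edgeR), where 3.72% of all such sites were lower and 31.8% higher. Between 1 and 10 kb, 1 of 13 sites was lower and 1 higher (10.8% and 4.02% of all such sites). Between 10 and 50 kb, 8 of 49 sites were lower and 1 was higher (11.1% and 2.22% of all such sites). Between 50 and 100 kb, 2 of 40 were lower, a smaller share than the 11.3% of all such sites. Beyond 100 kb, 7 of 45 were lower and 0 higher (5 and 0 by DESeq2; at an unadjusted p under 0.05, 8 and 3 by edgeR), beside 9.63% and 1.25% of all such sites. The lower sites had a median of 2.59 CPM in Control and 42.5% GC, the 4 higher ones 38.6 CPM and 65.1% GC, and the other 129 tested SOX sites 0.894 CPM and 47.8% GC.

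**Figure D2:**
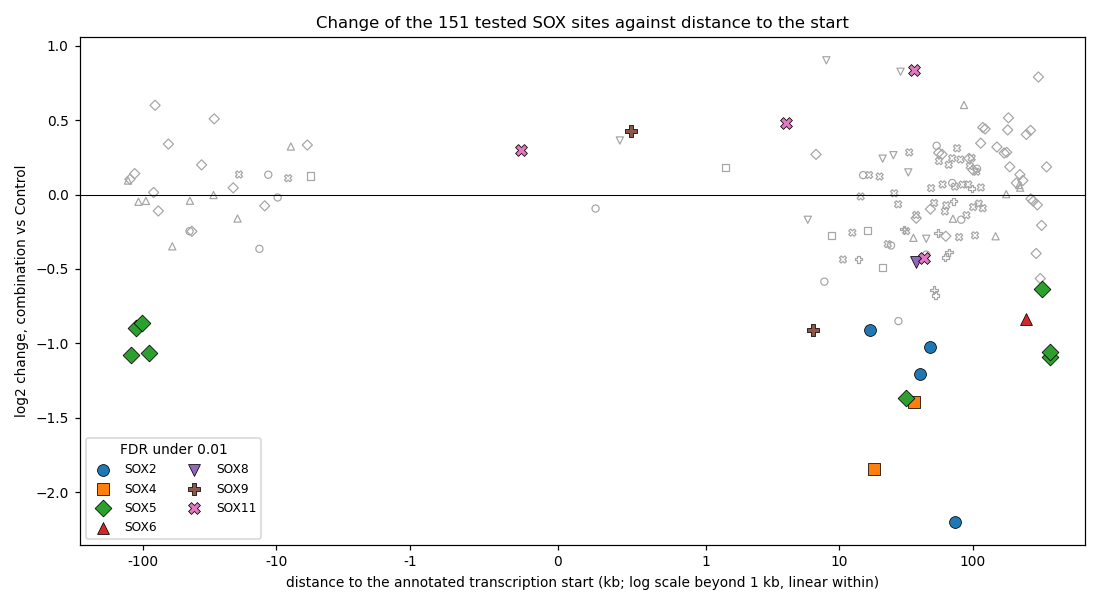
Log2 change of each tested SOX site with the combination against Control (y axis), against the distance of the site from its annotated TSS in kb (x axis, log scale beyond 1 kb). Filled symbols are the 18 lower and 4 higher sites with an FDR under 0.01, and open grey symbols the other sites; the filled symbols below 0 all lie at least 6.3 kb from the TSS.

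SOX2, the progenitor factor of group B1, had 4 lower sites among 18 and 0 higher (4 and 0 by DESeq2; at an unadjusted p under 0.05, 6 and 0 by edgeR), with a median log2 change of -0.29. The largest change of all 151 sites was at SOX2 +74.4 kb (chr3:181785686-181786879). The deposited annotation labels this site intergenic, while the GENCODE gene annotation places it in an intron of SOX2-OT. The site held 8.71, 8.92 and 7.50 CPM in the Control libraries, 2.00, 1.93 and 1.54 in shARID1A/B.2.3 and 1.79, 1.79 and 1.76 in shARID1A/B.4.2. All 6 combination libraries lay far below Control, and the log2 change was -2.20 (SE 0.13, edgeR FDR = 2.5e-27). Single silencing gave intermediate levels that depended on the hairpin, with 2.38 CPM ± 0.306 in shARID1A.2, 3.98 ± 1.09 in shARID1A.4, 4.15 ± 0.615 in shARID1B.2 and 6.88 ± 0.313 in shARID1B.3 (SD, n = 3). The averaged log2 change was -1.44 (SE 0.12) with ARID1A silencing and -0.64 (SE 0.11) with ARID1B silencing, both past the threshold, and ARID1A silencing lowered the site more, by a log2 difference of -0.80 (SE 0.11, edgeR FDR = 1.5e-08).

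The other lower SOX2 sites were +40.5 kb (log2 -1.20), +47.9 kb (-1.03) and +17.1 kb (-0.91), named after their values were seen. SOX2 +40.5 kb held 4.33, 4.40 and 4.29 CPM in Control, 2.10, 2.30 and 2.37 in shARID1A/B.2.3 and 1.66, 1.47 and 1.58 in shARID1A/B.4.2, so that the groups did not overlap (edgeR FDR = 1.9e-11). The site over the SOX2 exon and TSS, SOX2 +0.3 kb (chr3:181711042-181713316), was the strongest of the gene. It held 29.8, 29.8 and 28.1 CPM in Control, 25.6, 27.3 and 24.0 in shARID1A/B.2.3 and 28.9, 27.7 and 30.8 in shARID1A/B.4.2, which overlapped. Its log2 difference of -0.09 (SE 0.08) did not pass (edgeR FDR = 0.45), but it was -0.33 (FDR = 3.2e-05) when scaled on promoter sites and -0.23 (FDR = 0.0025) with offsets that follow abundance.

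SOX4, of group C, had 2 lower sites among 7, both intergenic and downstream, and 0 higher (1 and 0 by DESeq2; at an unadjusted p under 0.05, 3 and 1 by edgeR). SOX4 +18.4 kb (chr6:21611714-21612538), named after its values were seen because its mean was under 1 CPM, had the largest fall after the SOX2 site. Its Control libraries held 2.31, 1.85 and 1.44 CPM, those of shARID1A/B.2.3 0.525, 0.441 and 0.528, and those of shARID1A/B.4.2 0.627, 0.506 and 0.464. The log2 change was -1.84 (SE 0.22, edgeR FDR = 4.0e-11), and the site also fell with ARID1A (-1.06) and ARID1B silencing (-1.21), between which it did not differ by test (FDR = 0.78). SOX4 +36.2 kb fell too, by 1.40 on the log2 scale (edgeR FDR = 0.0014), from 0.663 CPM in Control.

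Near the SOX4 TSS, neither site passed. SOX4 +1.4 kb, over its single exon (chr6:21593347-21596931), held 31.1, 29.3 and 30.6 CPM in Control, 37.3, 33.7 and 37.3 in shARID1A/B.2.3 and 33.9, 31.8 and 33.2 in shARID1A/B.4.2. All combination libraries were above Control, with a log2 difference of 0.18 (SE 0.08, edgeR FDR = 0.078). SOX4 -5.6 kb (chr6:21586884-21589486) held 29.1 CPM ± 3.27 in Control and 30.4 ± 2.62 and 33.1 ± 0.497 in the combinations (log2 difference 0.12, SE 0.08, FDR = 0.30), with overlap.

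SOX11, the other group C gene, had the site with the most reads of all SOX sites, its promoter, and had 1 lower and 3 higher sites among 40 tested, or 0 and 2 by DESeq2. SOX11 -0.2 kb, its promoter (chr2:5690855-5693984), held 109, 114 and 99 CPM in Control, 126, 144 and 126 in shARID1A/B.2.3 and 134, 129 and 133 in shARID1A/B.4.2. All combination libraries were above Control (log2 change 0.30, SE 0.07, edgeR FDR = 0.00025). The rise rested on the scaling: it was 0.06 (FDR = 0.51) when scaled on promoter sites and -0.13 (FDR = 0.042) with offsets that follow abundance, and without Control replicate 3 it was 0.24 (FDR = 0.019).

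SOX11 +4.0 kb (chr2:5695862-5697503), over the single exon, held 48.2, 52.3 and 47.3 CPM in Control, 56.2, 62.1 and 57.0 in shARID1A/B.2.3 and 83.3, 78.7 and 80.7 in shARID1A/B.4.2. Both combinations were above Control and did not overlap with each other. The averaged log2 change was 0.48 (SE 0.07, edgeR FDR = 3.1e-08), but 0.18 (FDR = 0.013) with offsets that follow abundance, and shARID1A/B.2.3 alone did not pass (0.25, FDR = 0.018). ARID1B silencing raised it by itself (0.36, FDR = 9.4e-05), while ARID1A silencing gave 0.24 (FDR = 0.013). The promoter share of reads given above moved in the same direction as these rises, and its part in them was not tested.

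The weak sites SOX11 +36.4 kb and +43.1 kb, named after their values were seen, went in opposite directions. The first rose by 0.83 on the log2 scale (SE 0.25, edgeR FDR = 0.0088) from 0.639 CPM ± 0.278 in Control to 1.20 ± 0.106 and 1.07 ± 0.0957 in the combinations. The second was the only lower SOX11 site (log2 -0.43, SE 0.12, FDR = 0.0063), at 5.08 CPM ± 0.812 in Control and 3.93 ± 0.739 and 3.70 ± 0.134 in the combinations, with overlapping libraries.

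SOX5, of group D, had 8 lower sites among 50 tested and 0 higher (6 and 0 by DESeq2; at an unadjusted p under 0.05, 9 and 5 by edgeR), and all 8 lay in introns. The median over its sites was nevertheless 0.12 on the log2 scale, so the losses were of single sites. They formed 2 stretches. In the first, 4 sites upstream of the annotated TSS (-122.8, -113.9, -101.3 and -90.1 kb), but within the introns of longer SOX5 transcripts, fell by 0.86 to 1.08 on the log2 scale. In the second, 3 sites 332.7 to 382.6 kb downstream fell by 0.64 to 1.09. The remaining one was SOX5 +31.8 kb (-1.37).

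At SOX5 +379.6 kb (chr12:23564377-23565071), Control libraries held 2.55, 3.25 and 2.49 CPM, those of shARID1A/B.2.3 0.985, 1.49 and 0.703, and those of shARID1A/B.4.2 1.48, 1.61 and 1.39. The combinations did not overlap with Control, which the naming rule required. The log2 change was -1.09 (SE 0.17, edgeR FDR = 1.5e-07), beside -0.84 with ARID1A and -0.82 with ARID1B silencing, both past the threshold. SOX5 +382.6 kb (chr12:23561341-23562196) fell from 2.42 CPM ± 0.152 in Control to 1.30 ± 0.145 and 1.02 ± 0.262 (log2 -1.06, SE 0.17, FDR = 4.3e-07), and at 1.02 CPM ± 0.0262 shARID1A.4 was as low as the lower combination.

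SOX5 -101.3 kb (chr12:24045035-24046362) separated the hairpins. Its libraries held 4.04, 5.55 and 4.77 CPM in Control, 1.67, 2.21 and 1.85 in shARID1A/B.2.3 and 1.79, 2.47 and 2.02 in shARID1B.3. By contrast, shARID1A/B.4.2 held 4.53, 2.90 and 3.34 CPM, shARID1B.2 4.37 CPM ± 0.645, shARID1A.2 4.21 ± 0.156 and shARID1A.4 5.34 ± 0.381. The site was thus low in shARID1B.3 and in shARID1A/B.2.3, which by its name contains that hairpin, and the other groups overlapped with Control. Of the combinations, shARID1A/B.2.3 passed by itself (-1.31) and shARID1A/B.4.2 did not (-0.42, edgeR FDR = 0.046). The log2 change was -0.86 (SE 0.13, edgeR FDR = 1.1e-07) with the combination, -0.66 (SE 0.13, FDR = 0.00012) with ARID1B and -0.02 (SE 0.13, FDR = 0.97) with ARID1A silencing. Within ARID1B silencing, shARID1B.2 exceeded shARID1B.3 by 1.05 (FDR = 2.9e-07), so the averaged change was that of 1 hairpin.

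SOX5 -113.9 kb (chr12:24057835-24058575) passed with the combination and with neither single silencing. The libraries of shARID1A.2 (1.90, 2.36 and 2.20 CPM) nevertheless lay below all Control libraries, at a log2 difference of -0.40 (edgeR FDR = 0.18). It held 3.32, 2.42 and 2.85 CPM in Control, 1.12, 1.49 and 1.36 in shARID1A/B.2.3 and 1.75, 1.56 and 1.95 in shARID1A/B.4.2, without overlap, whereas the single-shRNA groups had means of 2.15 to 3.04 CPM. The log2 change was -0.89 (SE 0.16, edgeR FDR = 3.1e-06), the difference from single silencing -0.76 (SE 0.12, FDR = 2.3e-07), and the departure from additivity -0.62 (SE 0.20, FDR = 0.095). The site nearest to the annotated start, SOX5 -5.9 kb (chr12:23949158-23951267), held 4.33 CPM ± 0.212 in Control and 4.89 ± 0.858 and 5.98 ± 0.582 in the combinations. Its log2 difference of 0.33 (SE 0.13) did not pass (FDR = 0.054), but was 0.50 (FDR = 0.0015) with offsets that follow abundance.

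SOX6, its partner in group D, had 1 lower site among 16 and 0 higher (1 and 0 also by DESeq2 and at an unadjusted p under 0.05 by edgeR). SOX6 +250.1 kb, an intronic site, held 1.73, 2.55 and 2.00 CPM in Control, 1.08, 0.906 and 1.01 in shARID1A/B.2.3 and 1.12, 1.52 and 1.58 in shARID1A/B.4.2. All combination libraries were below Control, and the log2 change was -0.84 (SE 0.18, edgeR FDR = 0.00011), or -0.64 (FDR = 0.019) without Control replicate 2, the highest of the Control libraries. Of the combinations, shARID1A/B.2.3 passed by itself (-1.09) and shARID1A/B.4.2 did not (-0.59, FDR = 0.039). The hairpin shARID1A.2 also passed by itself (-0.81, FDR = 0.0055), at 1.20 CPM, while averaged ARID1A silencing did not (-0.53, FDR = 0.037). The site nearest to the SOX6 TSS, SOX6 -7.8 kb (chr11:16483711-16484643), held 0.880 CPM ± 0.155 in Control and 1.43 ± 0.258 and 0.857 ± 0.344 in the combinations (log2 difference 0.32, SE 0.23, FDR = 0.38).

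SOX9, the group E factor of the early neural crest, had a rise at its promoter and a fall at its 3' end among 11 sites, with 1 site in each direction also by DESeq2. SOX9 +6.3 kb (chr17:72126641-72128043) held 10.1, 9.16 and 8.66 CPM in Control, 4.43, 3.97 and 4.53 in shARID1A/B.2.3 and 5.96, 5.89 and 5.15 in shARID1A/B.4.2. The combination libraries lay below Control and below all single-shRNA libraries, at a log2 change of -0.91 (SE 0.10, edgeR FDR = 3.5e-12) and a difference from single silencing of -0.66 (SE 0.08, FDR = 4.2e-11). ARID1A silencing lowered it (-0.45, SE 0.10, FDR = 0.00069), ARID1B silencing gave -0.05 (SE 0.10, FDR = 0.84), and the difference between them was -0.40 (SE 0.08, FDR = 0.00034).

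SOX9 +0.5 kb, the promoter site (chr17:72120045-72122980), held 26.1, 30.4 and 27.3 CPM in Control, 33.1, 33.0 and 32.4 in shARID1A/B.2.3 and 41.3, 44.4 and 42.9 in shARID1A/B.4.2. All combination libraries were above Control, and the combinations again did not overlap with each other. The log2 change was 0.43 (SE 0.08, edgeR FDR = 3.6e-06), or 0.19 (FDR = 0.025) when scaled on promoter sites. With ARID1A silencing it was 0.28 (FDR = 0.0057), from 0.43 (FDR = 0.00013) with shARID1A.4 and 0.13 (FDR = 0.44) with shARID1A.2. ARID1B silencing gave 0.23 (FDR = 0.040), and the difference between ARID1A and ARID1B silencing was 0.05 (SE 0.06, FDR = 0.74). Of the combinations, shARID1A/B.4.2 passed by itself (0.62) and shARID1A/B.2.3 did not (0.23, FDR = 0.041). The promoter share of reads moved in the same direction here as well, and its part was not tested.

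SOX8, the remaining group E gene with sites, had 1 lower site among 9 and 0 higher (0 and 0 by DESeq2; at an unadjusted p under 0.05, 1 and 2 by edgeR). SOX8 +37.8 kb, named after its values were seen, fell by 0.45 on the log2 scale (SE 0.14, edgeR FDR = 0.0094), with 4.13 CPM ± 0.705 in Control, 2.38 ± 0.293 in shARID1A/B.2.3 and 3.86 ± 0.317 in shARID1A/B.4.2, so that only the first combination left the Control range. The site at the SOX8 TSS, SOX8 +0.4 kb (chr16:980138-984316), which also covers the promoter of LMF1, held 5.86 CPM ± 0.882 in Control and 7.29 ± 0.507 and 7.82 ± 0.315 in the combinations. Its log2 difference of 0.36 (SE 0.12) did not pass (FDR = 0.017).

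**Figure D3:**
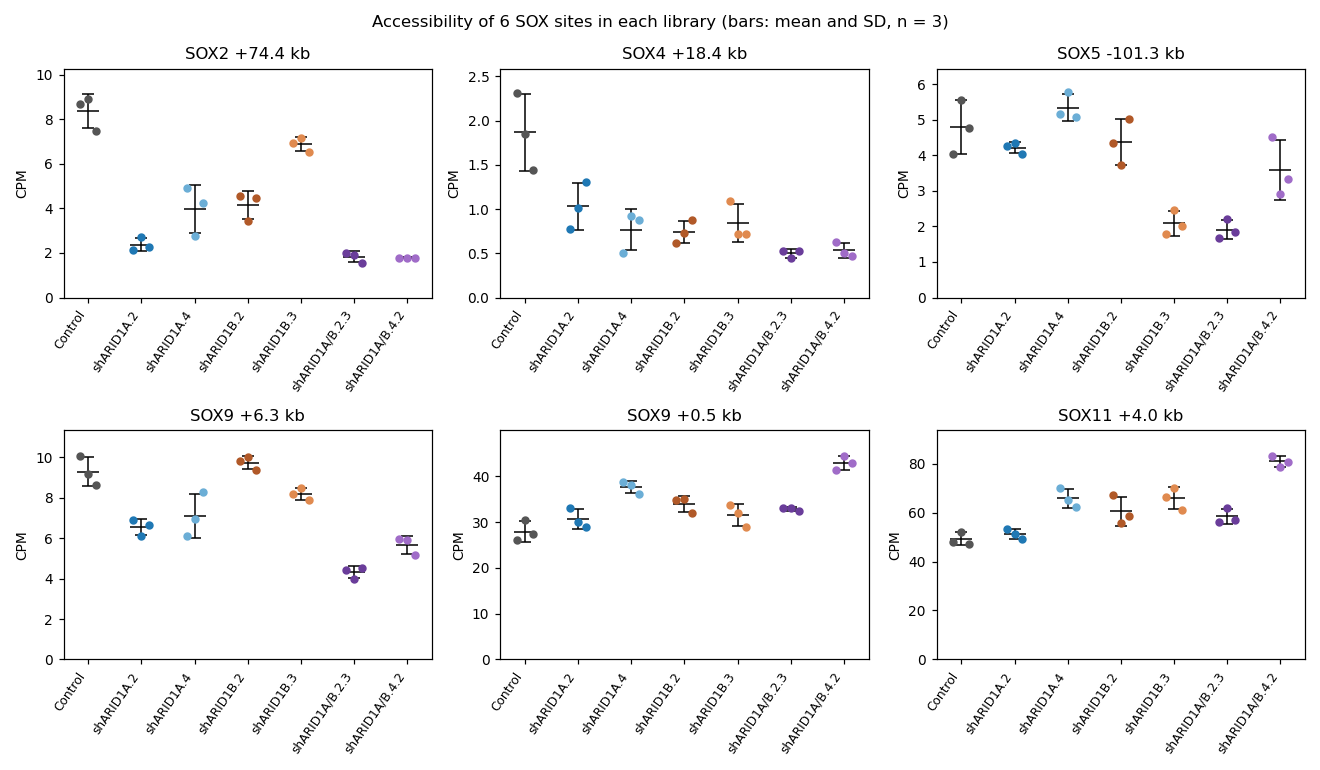
CPM (y axis from 0) at 6 SOX sites in the 21 libraries (points), by group on the x axis, with the mean and SD of 3 libraries as bars. The 6 combination libraries lie below all Control libraries at SOX2 +74.4 kb, SOX4 +18.4 kb and SOX9 +6.3 kb and above them at SOX9 +0.5 kb and SOX11 +4.0 kb, and SOX5 -101.3 kb is low in shARID1B.3 and shARID1A/B.2.3.

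Single silencing lowered fewer SOX sites, and the comparisons with Control share its 3 libraries. ARID1A silencing lowered 7 of 151 sites and raised 1 (background 5.37% and 1.67%), and ARID1B silencing lowered 9 and raised 1 (3.53% and 1.39%). Of the 18 sites lowered by the combination, 6 were also lowered by each single silencing, namely SOX2 +74.4 kb, SOX4 +18.4 kb and +36.2 kb, and SOX5 -90.1 kb, +379.6 kb and +382.6 kb. ARID1A silencing alone lowered 1 further site of the 18 (SOX9 +6.3 kb), ARID1B silencing alone 3 (SOX2 +40.5 kb and +47.9 kb and SOX5 -101.3 kb), and 8 passed with neither. The same split over all sites lowered by the combination is not given here, so it cannot be called particular to the SOX sites. No SOX site passed with a single silencing that did not pass with the combination. An effect that passed with one gene and not the other was tested directly. ARID1A and ARID1B silencing differed at 4 lower and 3 higher sites (background 3.69% and 1.05%). These were SOX2 +74.4 kb, SOX5 -101.3 kb and SOX9 +6.3 kb as given above, SOX8 +37.8 kb (-0.52) and 3 SOX5 sites that did not pass with the combination. The latter were SOX5 +180.4 kb (1.10), +329.9 kb (0.84) and +322.4 kb (-0.66), named after their values were seen. SOX2 +40.5 kb and +47.9 kb did not pass this direct test, so they cannot be called particular to ARID1B silencing.

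By single hairpin, shARID1A.2 lowered 7 of the 151 sites and raised 0 (background 4.54% and 0.834%; 10 higher at an unadjusted p under 0.05 by edgeR, and DESeq2 was not run on single hairpins), shARID1A.4 lowered 7 and raised 4 (4.17% and 2.28%), shARID1B.2 lowered 3 and raised 1 (1.84% and 1.34%), and shARID1B.3 lowered 6 and raised 1 (4.88% and 3.12%). Between hairpins of a gene, shARID1A.2 was lower than shARID1A.4 at 4 sites and higher at 1 (1.84% and 0.737% of all sites), and shARID1B.2 was lower than shARID1B.3 at 2 and higher at 6 (2.96% and 4.25%).

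Against the average of the 4 single-shRNA groups, the combination was lower at 8 sites and higher at 3 (background 6.85% and 0.969%). The 3 higher ones were SOX5 +101.0 kb (0.68), SOX5 +119.5 kb (0.52) and SOX11 +4.0 kb (0.18). The 8 lower sites were all among the 18: SOX2 +17.1 kb, +40.5 kb and +74.4 kb, SOX4 +18.4 kb, SOX5 -113.9 kb and -101.3 kb, SOX6 +250.1 kb and SOX9 +6.3 kb. At 3 of them, SOX2 +17.1 kb, SOX5 -113.9 kb and SOX6 +250.1 kb, neither single silencing had passed on average over its hairpins. At SOX6 +250.1 kb, however, the hairpin shARID1A.2 passed by itself. The departure from additivity, which is the combined log2 change minus both single changes, passed at 0 sites in either direction with edgeR (background 0.376% lower and 0.14% higher) and at 0 with DESeq2. At an unadjusted p under 0.05 there were 4 lower and 14 higher sites with edgeR and 5 and 8 with DESeq2.

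Both combinations lowered 10 of the 18 sites each by itself. The matching share of all lowered sites is not given here. Against Control, shARID1A/B.2.3 lowered 18 sites and raised 4 (background 10.4% and 2.85%), and shARID1A/B.4.2 lowered 11 and raised 3 (7.37% and 3.97%); without Control replicate 1 the latter lowered 7. The raised sites of shARID1A/B.2.3 numbered 0 without Control replicate 3. Compared with each other, shARID1A/B.2.3 was lower at 8 sites and higher at 0 (background 3.79% and 1.43%; at an unadjusted p under 0.05, 23 and 9 with edgeR, and 0 higher with DESeq2), or lower at 4 without shARID1A/B.4.2 replicate 1. These 8 included SOX5 -101.3 kb (-0.89), SOX8 +37.8 kb (-0.72), SOX11 +4.0 kb (-0.47) and SOX9 +0.5 kb (-0.38).

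**Figure D4:**
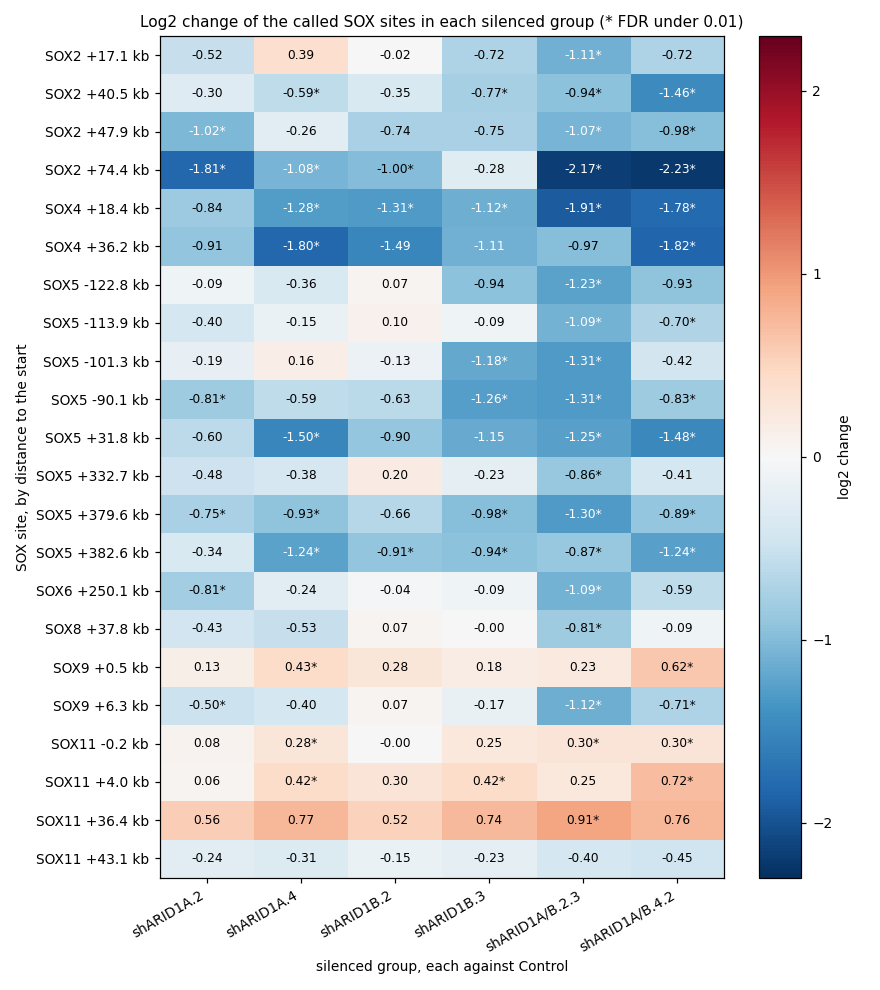
Log2 change against Control (colour and printed value) of the 18 lower and 4 higher SOX sites (rows, by gene and distance) in each of the 6 silenced groups (columns), where an asterisk marks an FDR under 0.01. Both combinations pass at 10 of the 18 lower sites, and the values in the single-shRNA columns are mostly smaller.

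The other genes of the SOX family and of the lineage gave different shares of changed sites with the combination. Of 131 tested sites of 11 further SOX genes, 2 (1.53%) were lower and 3 (2.29%) higher. Neural crest and glial genes had 21 lower sites of 95 (22.1%) and 0 higher (18 and 0 by DESeq2, and 5 higher at an unadjusted p under 0.05 by edgeR), and neuronal genes 54 lower (21.8%) and 13 higher (5.24%) of 248. Adrenergic genes had 26 lower and 4 higher of 129, mesenchymal genes 10 and 4 of 144, blood genes 4 and 2 of 30, epithelial genes 0 and 2 of 10, and liver genes 0 and 0 of 5, with the same counts for the last 2 lists by DESeq2 and, at an unadjusted p under 0.05 by edgeR, 0 and 3, and 0 and 2. The SOX sites, at 11.9% and 2.65%, lay between these lists and near the 10.3% and 3.43% of all sites; the differences between lists were not tested. Across the 21 libraries, the summed log2 level of SOX11 followed most closely that of HEY2 among 13339 genes compared (Pearson r = 0.969), and SOX4 that of DENND3 (0.948), SOX9 that of LONP2 (0.944), SOX2 that of ESRRG (0.934), SOX8 that of SEMA4A (0.927) and SOX6 that of SH3GLB1 (0.904). These are descriptions over libraries that share groups and scaling.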

How the data were processed

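ATAC-seq reads were aligned to GRCh38 per the labels, and the submitters' processing notes name DESeq2; aligner, peak caller and read shift: not given in the sources used here. What the authors deposited were raw read counts per library over 367900 consensus sites, with a HOMER annotation that names the nearest TSS. Their normalized counts, log2 ratios and p-values were not used. The 15 repeated Control columns were identical to the first, and every replicate pair differed by more than counting noise (chi-square per degree of freedom 1.08 to 2.47 over 21 pairs). The labels name biological triplicates from 1 line.

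Counts were fitted with the edgeR 4.0.16 quasi-likelihood test (R 4.3.3) with all 21 libraries in 1 model, TMM scaling, filterByExpr (minimum count 10) and Benjamini-Hochberg adjustment over 357029 tested sites; FDR values are from this test, and a site passed at an FDR under 0.01. Standard errors were derived from the test statistic. CPM is the count scaled to the TMM-adjusted total; totals of 16140029 to 44472230 set the counting error. On simulated counts at 357029 sites, the comparison of combination and Control recovered 99% of 200 changed sites with 4 false calls. In the data, this comparison gave 36610 lower and 12247 higher sites. Recovery at the CPM levels and log2 changes of the SOX sites was not tested. Alternatives were DESeq2 1.42.0, other scalings, no filter, fewer groups, a replicate block and leaving out each library. Sequences and GC came from the hg38 FASTA, in which 367899 sites lay on a sequence and 0 ran past its end. The site members and lists were chosen with earlier results of these data known. A few items that were withheld are not reported here.

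Sites were named by rule: the tested site nearest to each TSS; for each gene the largest fall and rise with the combination among sites past the threshold, averaging 1 CPM or more and without overlap with Control; the 5 sites with the highest Control CPM per kb; and the 3 sites with the smallest p for ARID1A against ARID1B silencing and for the departure from additivity. The rule for the largest fall and rise picked SOX2 +74.4 kb, SOX5 +379.6 kb, SOX6 +250.1 kb, SOX9 +6.3 kb, SOX9 +0.5 kb and SOX11 +4.0 kb. Their passing and their lack of overlap with Control were conditions of the choice and are no separate result. Any site outside this rule was named after its values were seen, also where this is not said beside it. For each gene, the most similar gene was the one with the highest Pearson r of log2 summed CPM, among genes with at least 5 sites and 10 CPM in Control.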

Additional observations from a re-analysis of the deposited data

Results flagged for a closer look

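Several named SOX sites responded differently to groups meant to act alike or in parallel, by edgeR tests of the difference itself (log2, FDR under 0.01). ARID1A silencing gave a lower level than ARID1B silencing at SOX2 +74.4 kb (-0.80, SE 0.11) and SOX9 +6.3 kb (-0.40, SE 0.08), and a higher one at SOX5 -101.3 kb (0.64, SE 0.11). The naming rule picked these sites for the smallest p in this same comparison, so their passing restates that choice. The combination shARID1A/B.2.3 was lower than shARID1A/B.4.2 at SOX5 -101.3 kb (-0.89, SE 0.17), SOX11 +4.0 kb (-0.47, SE 0.08) and SOX9 +0.5 kb (-0.38, SE 0.08).

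Hairpins against the same gene also differed. Within ARID1A silencing, shARID1A.2 was lower than shARID1A.4 at SOX2 +74.4 kb (-0.73, SE 0.17) and SOX11 +4.0 kb (-0.36, SE 0.08) and higher at SOX5 +382.6 kb (0.89, SE 0.23). Within ARID1B silencing, shARID1B.2 was lower than shARID1B.3 at SOX2 +74.4 kb (-0.72, SE 0.14) and higher at SOX5 -101.3 kb (1.05, SE 0.16). At SOX2 +74.4 kb and SOX5 -101.3 kb, the difference between ARID1A and ARID1B silencing is therefore an average over hairpins that themselves differed. How far each hairpin depleted its target was not analysed here, and its part in these differences was not tested.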

How the results depend on the processing

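The combination lowered 18 SOX sites, 13 to 19 under the alternatives other than promoter scaling and 24 when scaled on promoter sites. Promoter scaling moved the median log2 change of all sites from 0.03 to -0.20 and the split to 24 lower and 1 higher. Scaled on promoter sites, shARID1A/B.2.3 raised 0, shARID1A/B.4.2 lowered 19, ARID1A silencing lowered 14 and raised 0, the combination exceeded single silencing at 0, and shARID1A/B.2.3 against shARID1A/B.4.2 gave 2 lower and 3 higher. At an FDR under 0.05, shARID1A/B.2.3 raised 10, shARID1A/B.4.2 raised 6, ARID1A silencing lowered 13 and raised 4, ARID1B silencing raised 3, the combination exceeded single silencing at 7, and shARID1A/B.2.3 exceeded shARID1A/B.4.2 at 3. With DESeq2, shARID1A/B.2.3 raised 1, shARID1A/B.4.2 lowered 7 and ARID1A silencing raised 2, as it did with DESeq2 size factors. On total counts, shARID1A/B.2.3 raised 8, ARID1A silencing 3 and the combination exceeded single silencing at 5. Offsets that follow abundance gave 5 raised by shARID1A/B.4.2, 1 above single silencing and 2 higher in shARID1A/B.2.3 than in shARID1A/B.4.2. Without the filter, shARID1A/B.4.2 raised 5 and ARID1A silencing 3, and with only the compared groups in the fit shARID1A/B.2.3 raised 1 and shARID1A/B.4.2 raised 5. The cause was not tested, except that a wider threshold calls more sites by construction.

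The deviations of same-numbered libraries correlated at r = -0.16 to 0.305 (median 0.00469, 63 pairs), most strongly for replicate 2 of Control and shARID1A/B.2.3, and 12 of 21 libraries correlated best with their own number. As not every pair exceeded 0.1, the numbers were not treated as pairs. With the number as a replicate block, ARID1A silencing raised 2 sites and the combination exceeded single silencing at 5, and the other counts moved by less than 1.5 times. Leaving out each library in turn gave 13 to 18 lower and 2 to 5 higher sites for the combination (2 without Control replicate 3), 0 to 7 raised by shARID1A/B.2.3 (0 without Control replicate 3, 1 without shARID1A/B.2.3 replicate 2, 7 without shARID1A.2 replicate 2), 7 to 11 lowered (7 without Control replicate 1) and 2 to 6 raised by shARID1A/B.4.2 (6 without shARID1A.2 replicate 2, shARID1A.4 replicate 1, shARID1B.3 replicate 1 or any library of shARID1A/B.2.3), 0 to 4 raised by ARID1A silencing (0 without Control replicate 1 or 3, shARID1A.2 replicate 1 or shARID1A.4 replicate 2, and 4 without shARID1A.2 replicate 2), 5 to 10 lowered by ARID1B silencing (5 without Control replicate 2), 0 to 6 above single silencing (6 without Control replicate 2, 0 without shARID1A/B.2.3 replicate 2 or shARID1A/B.4.2 replicate 3, 1 without shARID1A.4 replicate 2, shARID1B.2 replicate 2 or shARID1A/B.4.2 replicate 1), and 4 to 8 lower in shARID1A/B.2.3 than in shARID1A/B.4.2 (4 without shARID1A/B.4.2 replicate 1). Counts of raised sites thus moved with single libraries.

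Of the 16 named sites, SOX11 -0.2 kb turned to -0.13 with offsets that follow abundance, and missed the threshold when scaled on promoter sites or without Control replicate 3. SOX9 +0.5 kb, SOX11 +4.0 kb and SOX6 +250.1 kb each missed it under 1 alternative, as given with their values. SOX8 +0.4 kb, SOX2 +0.3 kb and SOX5 -5.9 kb passed it under some. Sites of under 1 CPM rest on few reads, and TMM cannot measure a change shared by most sites.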

Other observations

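Beyond the sites above, SOX8 +25.5 kb, chosen after its values were seen, had the largest difference between the combinations among the SOX sites, with 0.361, 0.232 and 0.352 CPM in shARID1A/B.2.3 and 1.03, 0.736 and 0.696 CPM in shARID1A/B.4.2 (log2 -1.43, SE 0.36, edgeR FDR = 0.0037). Its Control libraries held 0.674, 0.247 and 0.361 CPM, and the averaged combination did not pass against Control (FDR = 0.67). SOX2 +15.1 kb, chosen likewise, parted in the same way, with 4.73 CPM ± 0.368 against 7.01 ± 0.296 (SD, n = 3; log2 -0.57, FDR = 0.00062) around a Control level of 5.27 ± 0.449. At both sites the Control mean lay between those of the combinations.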
